A study of Homo sapiens with 8 samples.

Results

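The transcriptome described here is that of Caco-2 clone TC7 cells given an empty plasmid. It comprises the 4 arrays titled as controls among the 8 arrays deposited, and the genes were taken as every probe set with 1 gene symbol, which gave 22458 of 23786 probe sets. Caco-2 is a human epithelial line from a colon tumour, and TC7 is 1 clone of it. The cells grew in high-glucose DMEM with serum and antibiotics, were still subconfluent, and received 200 ng of the empty vector pBS overnight. The other 4 arrays carry a CRTC1 expression plasmid and were not used here. Every sample described was thus a transfected, proliferating culture of 1 clone, and untransfected or confluent cells were not analysed here. The labels number the 4 control arrays but do not say whether they came from separate cultures, so the spread between them may be technical. There is 1 group and no comparison between conditions, so the values below are descriptions without a test.

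Caco-2 cells are used as a model of the absorptive cell of the intestine, since after confluence they polarise and build a brush border, the carpet of microvilli that carries digestive enzymes and transporters. The line is also known for making and secreting apolipoproteins and plasma proteins that the adult body obtains mainly from the liver. The absorptive programme is set by transcription factors of the CDX, GATA and KLF families, and goblet, enteroendocrine, Paneth and tuft cells form the other, secretory lineages of the intestinal epithelium.

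Each value is the authors' log2 signal of a probe set. Over the 4 arrays the signals spanned 0.93 to 12.87. The gene means had a median of 4.16 and quartiles of 2.79 and 6.36. No detection calls came with the values, so a floor level was set from the 374 olfactory receptor genes, a family with no known role in colon epithelium. Its 95th percentile lay at 3.87, and genes at or below it are called near the floor. The 10% of genes with the highest mean, called the highest 10%, began at 7.92. By these rules 2245 genes, 10.0%, were in the highest 10% and 10305 genes, 45.9%, were near the floor. The limits cut through a continuous range: MRM2 at 7.92 was the last gene inside the highest 10% and PPP6C, also at 7.92, the first outside it, while ARMS2 at 3.87 was the first inside the floor and LOC100507472, also at 3.87, the last above it. Probes differ in how strongly they bind, so a signal orders a gene only roughly among other genes, and no fold is given between genes.

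**Figure D1:**
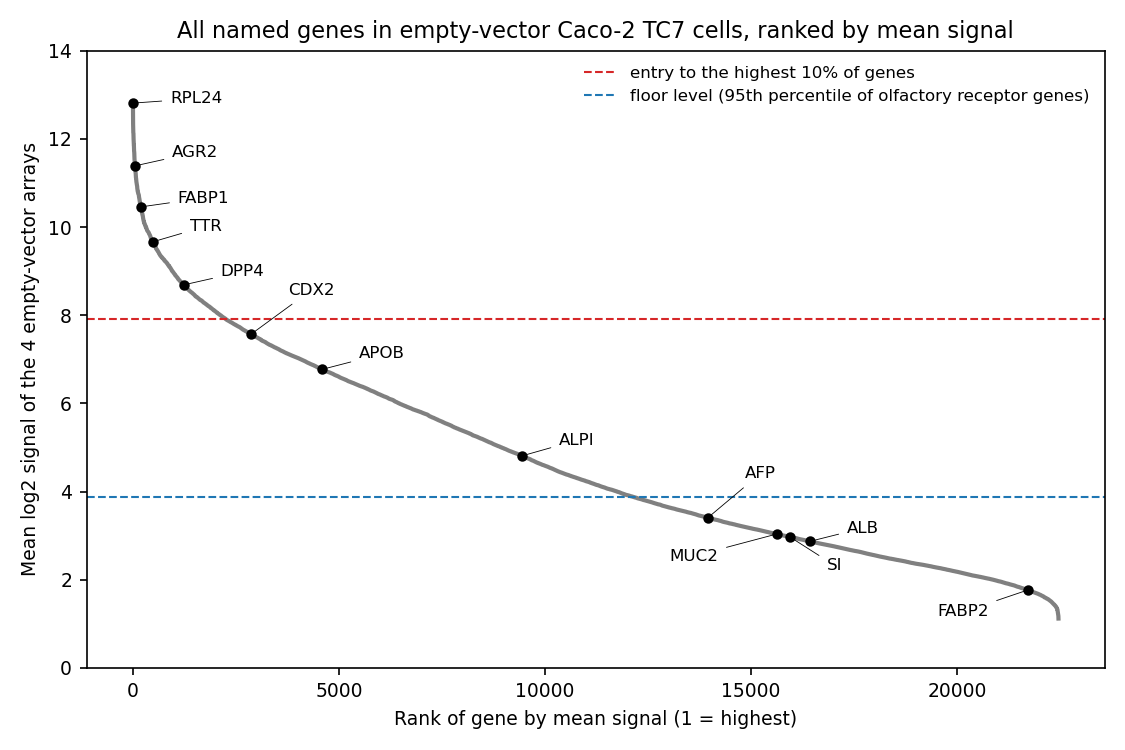
Mean log2 signal of the 4 empty-vector arrays (vertical axis) against the rank of each of the 22458 named genes (horizontal axis, 1 is the highest). The red dashed line is the entry to the highest 10% at 7.92 and the blue dashed line is the floor level at 3.87. AGR2, FABP1, TTR and DPP4 lie above the red line, whereas MUC2, SI, ALB and FABP2 lie below the blue one.

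The arrays were close to each other. Pairwise Pearson correlations over all named genes, which are not independent of each other, were 0.990 to 0.991, and at most 55 genes had the same value on a pair of arrays. The medians of the 4 arrays were 4.18, 4.14, 4.16 and 4.19. The SD of a gene over the arrays had a median of 0.161, being 0.0770 in the highest 10%, 0.147 between the limits and 0.20 near the floor. Of the 100 genes with the highest signal on an array, 88 were among the 100 highest on all 4. Replicate 1 stood apart in genes of medium and high signal. Among genes at or above the median level, 34 lay more than 1 log2 unit from the mean of the other arrays on replicate 1, against 11, 9 and 23 on replicates 2, 3 and 4. Means without replicate 1 are therefore given for some, but not all, of the genes in which it lay far from the rest. FOXA1, at 7.68 on replicate 1 and 8.29 to 8.43 on the others, and ABCG2 are given only with the mean of the 4 arrays. Throughout, ± is the SD over the 4 arrays (n = 4).

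Genes of the microvillus scaffold ranged from high signal to the floor, and most of the digestive enzymes that it carries were near the floor. Of 15 genes of the brush border cytoskeleton and adhesion, 5 were in the highest 10%, 33.3% against 10.0% of all genes, and 3 were near the floor. VIL1, which encodes the actin-bundling protein villin, read 9.55, 9.56, 9.63 and 9.51 on the 4 arrays, a mean of 9.56 ± 0.0490. EPS8, an actin-capping protein of microvilli, averaged 9.32 ± 0.0925. The scaffold protein NHERF1 averaged 9.26 ± 0.0765 and EZR, encoding ezrin, which links actin to the membrane, averaged 8.86 ± 0.101. CDH17, the intestinal cadherin of the lateral membrane, averaged 9.05 ± 0.127. The genes of the link between microvillus tips were not all at the same place in the range: USH1C averaged 6.58 ± 0.188, ANKS4B 6.05 ± 0.174 and CDHR5 5.43 ± 0.104, and MYO7B at 3.63 ± 0.151 and CDHR2 at 3.35 ± 0.208 were near the floor. MYO1A, the brush border myosin, averaged 4.50 ± 0.253.

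Of 14 brush border hydrolases with a probe set named here, 1 was in the highest 10% and 11 were near the floor, 78.6% against 45.9% of all genes. The exception was DPP4, a dipeptidyl peptidase of the apical membrane, with 8.45, 8.84, 8.67 and 8.80 on the 4 arrays and a mean of 8.69 ± 0.176. All 4 of its values were above the entry to the highest 10%. SI, which encodes sucrase-isomaltase and serves as the classic marker of differentiated Caco-2 cells, read 2.55, 2.91, 3.20 and 3.23, a mean of 2.97 ± 0.315. All 4 of these values were below the floor level. The disaccharidases LCT (lactase), MGAM (maltase-glucoamylase) and TREH (trehalase) averaged 2.63 ± 0.0877, 2.19 ± 0.217 and 2.64 ± 0.236. ALPI, the intestinal alkaline phosphatase, averaged 4.81 ± 0.0465 and ANPEP, aminopeptidase N, 4.14 ± 0.249, both just above the floor. MME, ENPEP, MEP1A, MEP1B and TMPRSS15, all membrane peptidases, were between 1.98 and 3.66. As RNA came from whole cultures, a low signal in all cells and a high signal in a few cells cannot be told apart.

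The promoters of these enzymes differ in base composition, and DPP4 and SI are shown because they stand at opposite ends of the signal range within 1 list. The 120 bases before the start of each gene, from RefSeq for GRCh38.p14, are given 5′ to 3′ on the gene's strand, with CG dinucleotides and matches to the motifs described further on in capitals. DPP4 lies on the minus strand with these bases at chr2:162074216-162074335, and SI on the minus strand with these at chr3:165078497-165078616.
DPP4: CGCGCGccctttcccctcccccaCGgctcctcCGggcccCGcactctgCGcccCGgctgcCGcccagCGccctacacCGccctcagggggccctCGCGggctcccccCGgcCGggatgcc
SI: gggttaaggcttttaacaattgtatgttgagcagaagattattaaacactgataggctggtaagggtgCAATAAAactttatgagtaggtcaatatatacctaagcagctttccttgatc
The stretch of DPP4 held 15 CG dinucleotides and no match to the motifs. The stretch of SI held 0 CG dinucleotides and 1 match on the reverse strand to TTTATNG, a core of the site bound by CDX proteins. The pair does not stand for the whole list. In the 300 bases from 250 before to 50 after the start, ANPEP held 32 CG dinucleotides and DPP4 34, although ANPEP averaged only 4.14.

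The genes of fat uptake and lipoprotein assembly were spread over the whole range. Of 25 measured, 7 were in the highest 10%, 28.0% against 10.0% of all genes, and 4 were near the floor, 16.0% against 45.9%. APOA2, an apolipoprotein of high density lipoprotein, read 10.31, 10.93, 10.85 and 11.02 on the 4 arrays, a mean of 10.78 ± 0.318, with replicate 1 the lowest and a mean of 10.93 ± 0.0823 without it. FABP1, the liver-type fatty acid binding protein that the intestine also makes, read 10.13, 10.44, 10.52 and 10.74, a mean of 10.46 ± 0.252. Its intestinal paralogue FABP2 read 1.79, 2.01, 1.79 and 1.47, a mean of 1.76 ± 0.224, and only 3.3% of genes had a lower mean. The paralogues of this pair were at opposite ends of the range on every array.

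The stretches before the starts of these paralogues are shown for that contrast, in the same form as above. FABP1 lies on the minus strand with these bases at chr2:88128063-88128182, and FABP2 on the minus strand at chr4:119322139-119322258.
FABP1: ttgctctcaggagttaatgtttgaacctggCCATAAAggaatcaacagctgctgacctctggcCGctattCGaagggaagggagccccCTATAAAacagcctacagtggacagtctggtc
FABP2: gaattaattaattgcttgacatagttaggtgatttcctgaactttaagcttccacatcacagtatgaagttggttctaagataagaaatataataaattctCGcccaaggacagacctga
The stretch of FABP1 held 2 reverse-strand matches to TTTATNG and 1 to the TATA box TATAAA, which overlaps the second TTTATNG match. The stretch of FABP2 held no match to any of the 5 motifs searched.

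Among the apolipoproteins, APOA1 averaged 8.26 ± 0.0281, with its 4 values between 8.22 and 8.28. APOC3 averaged 7.23 ± 0.116, APOE 7.01 ± 0.172 and APOC1 6.85 ± 0.0453. APOB, the structural protein of chylomicrons, read 5.90, 6.83, 7.15 and 7.20, a mean of 6.77 ± 0.604. Replicate 1 was low here, and the other 3 arrays averaged 7.06 ± 0.201. APOA4, an apolipoprotein of the small intestine, averaged 4.38 ± 0.201. MTTP, which loads lipid onto APOB, averaged 2.67 ± 0.105 and was near the floor on all 4 arrays.

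The enzymes and receptors of the pathway also differed in place. SCARB1, a lipoprotein and lipid receptor, averaged 8.29 ± 0.0584. SAR1B, the small GTPase of chylomicron export, averaged 8.27 ± 0.0845. Of the enzymes that make triglyceride from diglyceride, DGAT1 averaged 8.16 ± 0.135 and DGAT2 5.54 ± 0.0635. MOGAT2, the intestinal monoglyceride acyltransferase, averaged 2.34 ± 0.330, and the fatty acid receptor CD36 1.79 ± 0.163. RBP2, the retinol binding protein of enterocytes, averaged 8.02 ± 0.225, and NPC1L1, the cholesterol uptake receptor, 4.98 ± 0.126.

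Plasma proteins of the liver were represented by a few genes at high signal and many near the floor. Of 39 measured, 4 were in the highest 10%, 10.3%, which is close to the 10.0% of all genes, and 21 were near the floor, 53.8% against 45.9%. With 2 lower floors, at 2.88 and 2.79, the share was below that of all genes, 23.1% against 27.0% and 17.9% against 25%. TTR, the carrier of thyroxine and of retinol binding protein, read 9.21, 9.88, 9.66 and 9.90 on the 4 arrays, a mean of 9.66 ± 0.325. VTN, encoding the adhesion protein vitronectin, read 9.17, 9.94, 9.74 and 9.44, a mean of 9.57 ± 0.337. RBP4, the plasma retinol carrier, read 8.95, 9.62, 9.35 and 9.30, a mean of 9.31 ± 0.275. In all 3 genes replicate 1 was the lowest array and all 4 values lay in the highest 10%. Without replicate 1 they averaged 9.82 ± 0.133, 9.71 ± 0.248 and 9.42 ± 0.174. SERPINA1, encoding alpha-1-antitrypsin, averaged 8.29 ± 0.0860 and AGT, encoding angiotensinogen, 7.52 ± 0.25.

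The most abundant plasma protein of adults and its fetal counterpart were not among these. ALB, encoding albumin, read 2.92, 2.79, 3.16 and 2.60, a mean of 2.87 ± 0.237. AFP, encoding alpha-fetoprotein, read 2.95, 3.86, 3.22 and 3.60, a mean of 3.41 ± 0.403. Every value of both genes was below the floor level. The iron carrier TF averaged 2.88 ± 0.175, haptoglobin HP 2.56 ± 0.362, plasminogen PLG 2.26 ± 0.397 and ceruloplasmin CP 1.86 ± 0.159. The fibrinogen chains, which are secreted as 1 hexamer, were at 5.39 ± 0.456 for FGA, 4.08 ± 0.236 for FGB and 3.03 ± 0.252 for FGG. C3, the central complement protein, averaged 5.90 ± 0.446, AHSG 5.61 ± 0.286 and prothrombin F2 5.26 ± 0.327.

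Replicate 1 was the lowest array for most of these genes, a count made after the values were seen. Among all genes above the floor level, 24.5% had their lowest value on replicate 1. Of the 18 liver plasma protein genes above the floor, 14 did, 77.8%, and their mean was 5.67 on replicate 1 and 6.02, 5.96 and 6.10 on replicates 2, 3 and 4. Of the 12 brush border cytoskeleton genes above the floor 9 did, 75%, and of the 21 lipid genes 12 did, 57.1%. Over all genes above the floor, the arrays averaged 6.37, 6.34, 6.34 and 6.34. The cause of this difference was not tested.

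**Figure D2:**
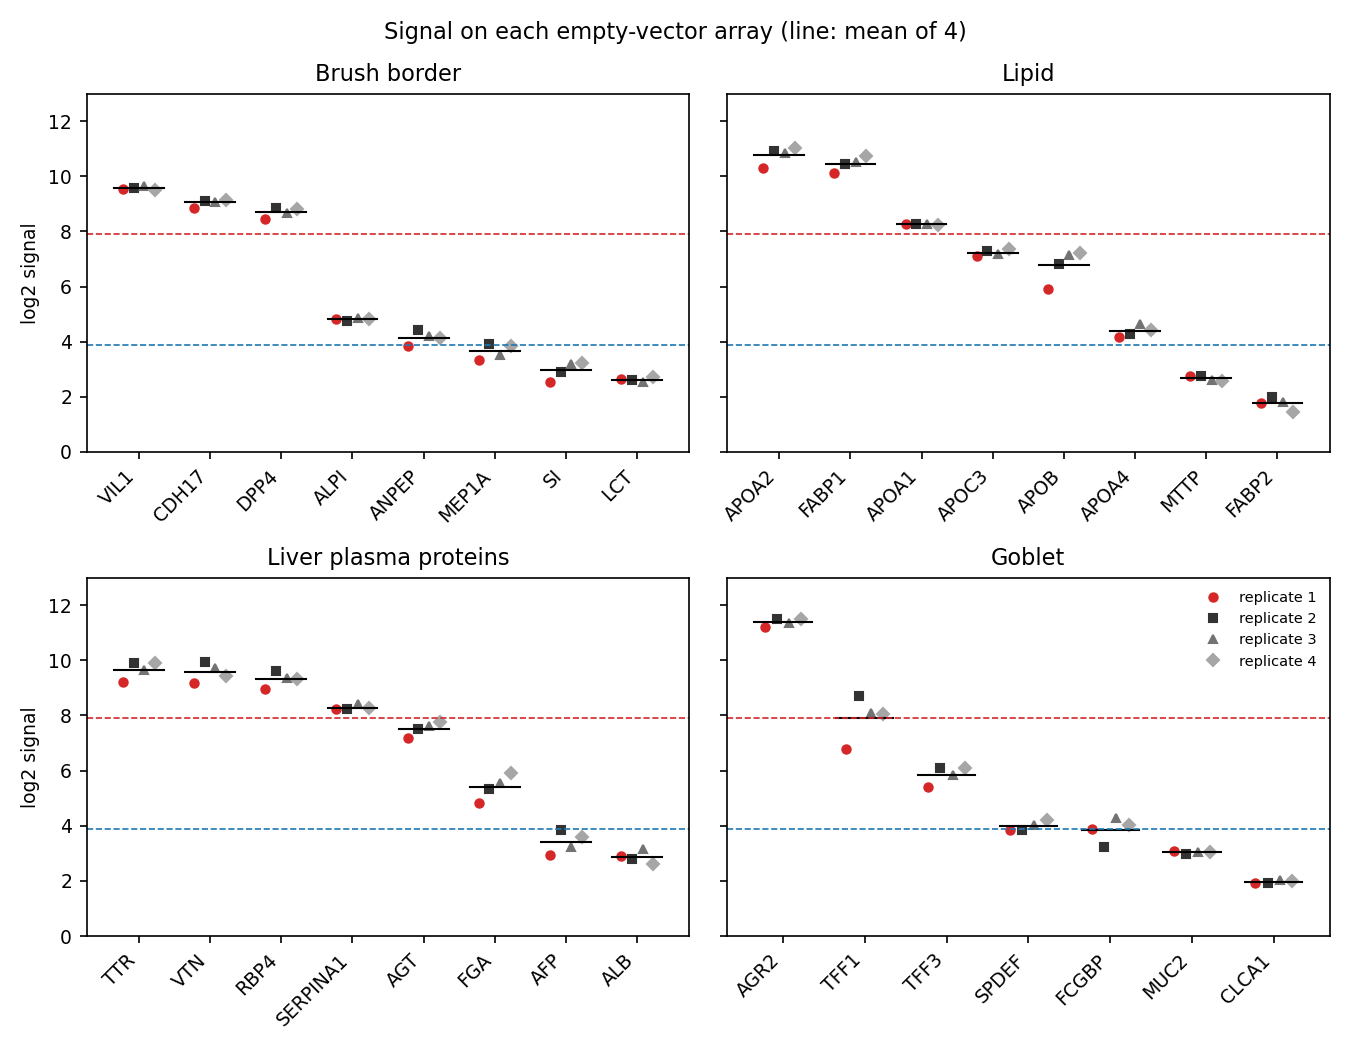
Log2 signal on each empty-vector array for brush border, lipid, liver plasma protein and goblet cell genes, with replicate 1 in red, the other arrays in grey tones and the mean of 4 as a black line. The red and blue dashed lines are the entry to the highest 10% and the floor level. Replicate 1 lies lowest for APOA2, APOB, TTR, VTN, RBP4, AGT, FGA, TFF1 and TFF3.

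Liver enzymes of intermediary metabolism were mostly near the floor. Of 23 measured, 1 was in the highest 10% and 16 were near the floor, 69.6% against 45.9%. ALDH1A1, which makes retinoic acid, averaged 9.29 ± 0.0658. Of the urea cycle, ASS1 averaged 7.32 ± 0.223 and ASL 6.52 ± 0.168, whereas CPS1 at 2.53 ± 0.114, ARG1 at 3.04 ± 0.217 and OTC at 1.98 ± 0.279 were near the floor. The bile acid conjugating enzyme BAAT averaged 6.35 ± 0.115, whereas CYP7A1, the rate-limiting enzyme of bile acid synthesis, averaged 2.15 ± 0.142. The gluconeogenic genes PCK1, G6PC1 and FBP1 were between 2.91 and 3.23.

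Intestinal and hepatic transcription factors were measured for 26 genes, of which 4 were in the highest 10%, 15.4% against 10.0% of all genes, and 4 near the floor, 15.4% against 45.9%. KLF5, a zinc finger factor of proliferating crypt cells, averaged 8.79 ± 0.0854. The Notch target HES1 averaged 8.23 ± 0.127, the pioneer factor FOXA1 8.19 ± 0.344 and TCF7L2, the nuclear partner of beta-catenin, 8.00 ± 0.0308. CDX2, the homeobox factor that defines intestinal identity, read 7.33, 7.5, 7.77 and 7.68, a mean of 7.57 ± 0.195, with 87.2% of genes below it. Its paralogue CDX1 averaged 3.92 ± 0.316, close to the floor level. SOX9 of the crypt averaged 7.03 ± 0.0818.

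The GATA and FOXA families were uneven. GATA6 averaged 6.94 ± 0.0475, GATA5 4.27 ± 0.140 and GATA4, which in the gut is known from the proximal small intestine, 3.72 ± 0.309. FOXA2 averaged 6.25 ± 0.111 and FOXA3 4.44 ± 0.198. ELF3, an epithelial ETS factor, averaged 6.28 ± 0.102 and the nuclear receptor NR5A2 6.11 ± 0.177. SOX2, a factor of the foregut and of pluripotent cells, read 5.66, 5.39, 5.60 and 5.32, all above the floor level. ISX at 3.61 ± 0.175, ONECUT1 at 3.27 ± 0.254 and PROX1, a factor of hepatocytes and lymphatic endothelium, at 3.17 ± 0.156 were near the floor.

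HOX genes, which encode position along the body axis, had no member in the highest 10% in the HOXB, HOXC and HOXD clusters. In the HOXB cluster HOXB9 averaged 7.37 ± 0.361 and HOXB7 6.45 ± 0.0749, and 2 of 10 genes, HOXB1 and HOXB5, were near the floor. In the HOXC cluster the means ran from 3.67 for HOXC10 to 5.39 for HOXC6, and 1 of 9 was near the floor, 11.1% against 45.9%. With a higher floor, at 5.10, the HOXC share was 66.7% against 61.3% of all genes. In the HOXD cluster 7 of 9 were near the floor, 77.8% against 45.9%, and HOXD13, a gene of the hindgut, averaged 2.76 ± 0.168. With 2 lower floors, at 2.88 and 2.79, the HOXD share was 33.3% against 27.0% and 22.2% against 25% of all genes. Of the HOXA cluster only HOXA2 has a probe set named here, at 5.00 ± 0.179.

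**Figure D3:**
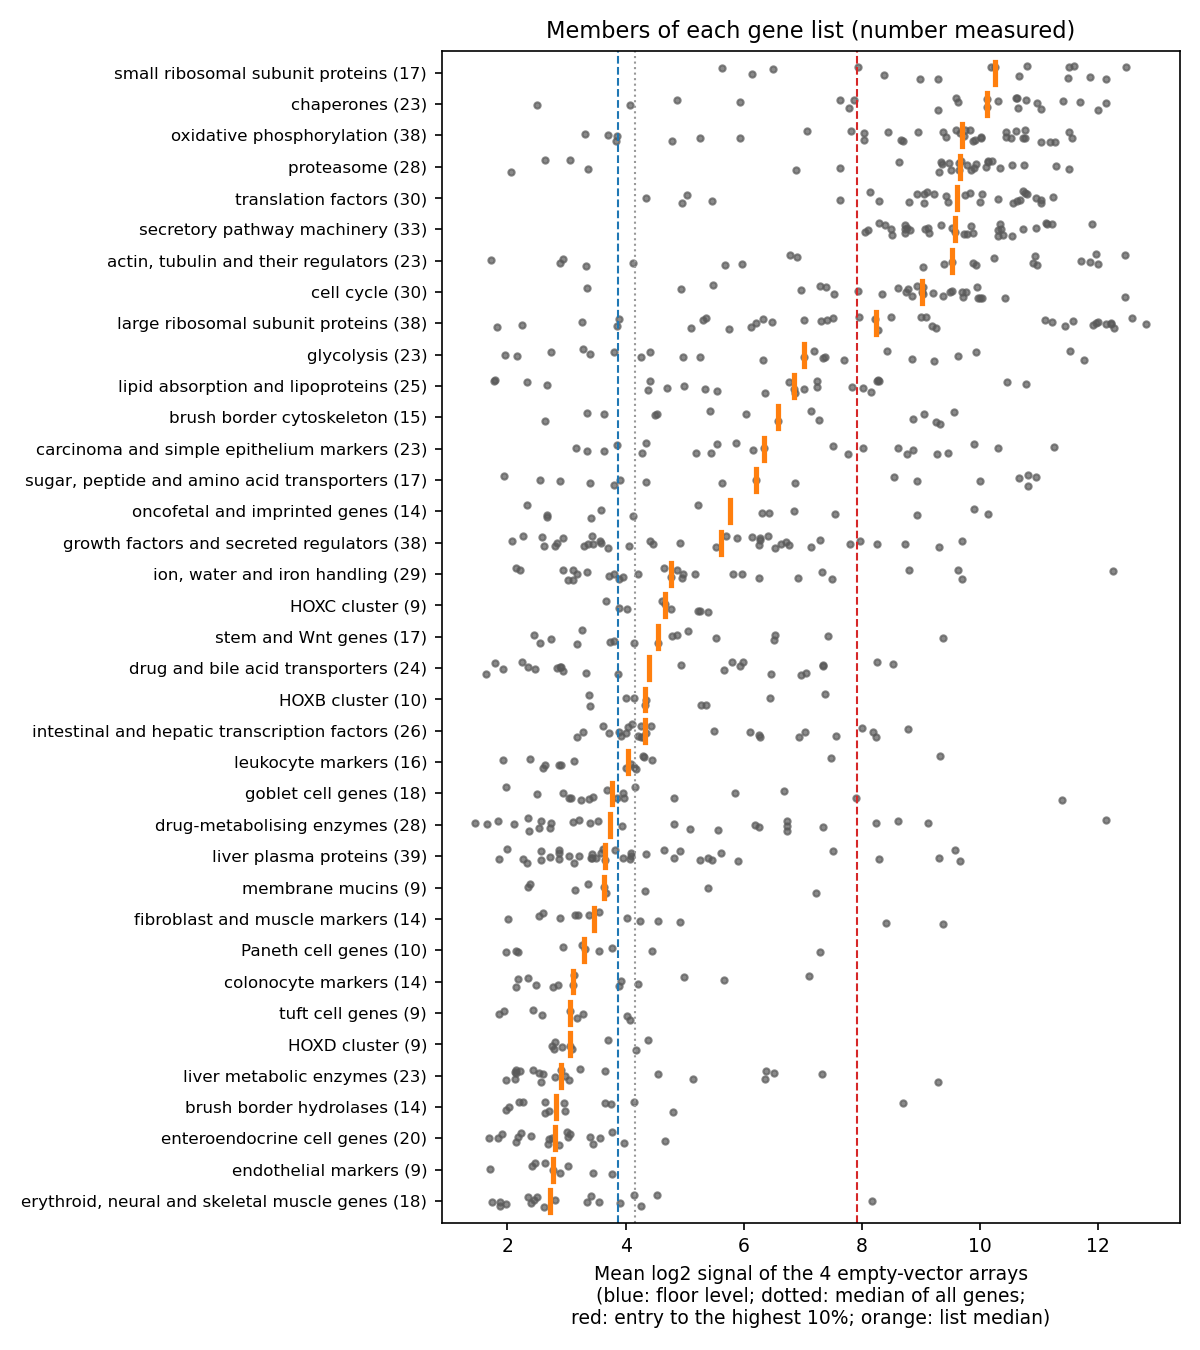
Mean log2 signal of every measured member of the gene lists (grey points, 1 per gene), with the number measured after each name and the list median as an orange bar. Blue and red dashed lines are the floor level and the entry to the highest 10%, and the dotted line is the median of all genes. Secretory pathway machinery has all 33 members right of the red line, and endothelial markers have all 9 left of the blue one.

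Transporters of sugars, peptides and amino acids ranged from high signal to the floor. Of 17 measured, 7 were in the highest 10%, 41.2% against 10.0%, and 5 were near the floor, 29.4% against 45.9%. SLC2A1 and SLC2A3, the facilitative glucose carriers GLUT1 and GLUT3 that many tumour cells use, averaged 10.94 ± 0.0925 and 10.81 ± 0.192. The amino acid carriers SLC38A2 and SLC7A5 averaged 10.81 ± 0.135 and 10.67 ± 0.15, and SLC3A2, the heavy chain that pairs with SLC7A5, averaged 10.00 ± 0.160. SLC7A7, a basolateral amino acid carrier of the enterocyte, averaged 8.93 ± 0.153. SLC15A1, the peptide carrier PEPT1, read 6.84, 6.95, 6.85 and 6.83, a mean of 6.87 ± 0.0556. SLC5A1, the sodium-glucose carrier SGLT1, averaged 2.90 ± 0.224 and the fructose carrier SLC2A5 2.55 ± 0.321. SLC2A2, encoding GLUT2, read 4.86, 2.94, 3.08 and 2.70, a mean of 3.39 ± 0.991. Only replicate 1 exceeded the floor level there, and without it the mean was 2.90 ± 0.192.

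Of 24 drug and bile acid transporters, 2 were in the highest 10% and 12 near the floor, 50% against 45.9%. ABCC2, the apical export pump MRP2, read 8.76, 8.63, 8.45 and 8.27, a mean of 8.53 ± 0.214. The nucleoside carrier SLC29A1 averaged 8.26 ± 0.0549. ABCB1, encoding P-glycoprotein, averaged 6.98 ± 0.263 and the uptake carrier SLCO2B1 7.05 ± 0.0733. ABCG2, another apical drug pump, averaged 5.80 ± 0.487. SLC10A2, the ileal bile acid carrier, averaged 2.94 ± 0.130. The liver carriers SLCO1B3 at 1.64 ± 0.259 and SLC47A1 at 1.79 ± 0.193 were near the floor, as was the phospholipid pump ABCB4 at 2.24 ± 0.172.

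Of 28 drug-metabolising enzymes, 4 were in the highest 10% and 14 near the floor, 50% against 45.9%. GSTP1, the glutathione transferase of many tumour lines, averaged 12.13 ± 0.0371 and ranked 13 of all genes. NQO1, a quinone reductase, averaged 9.13 ± 0.143. UGT1A6 averaged 8.62 ± 0.236, but UGT1A genes share their last exons, so this signal cannot be given to 1 of them with certainty. CYP1A1, the enzyme induced through the aryl hydrocarbon receptor, read 9.23, 8.12, 7.91 and 7.68, with replicate 1 the highest. Its mean was 8.24 ± 0.685, and without replicate 1 it was 7.91 ± 0.219, just under the entry to the highest 10%. CYP3A4, the main drug oxidase of the adult intestine, read 1.55, 2.09, 1.8 and 1.93, a mean of 1.84 ± 0.226, with 4.4% of genes below it. The carboxylesterases CES1, the liver form, and CES2, the intestinal form, averaged 6.26 ± 0.157 and 5.57 ± 0.0591. UGT2B15 at 1.46 ± 0.234 and UGT2B17 at 1.66 ± 0.0708 were near the floor. Among all 52 cytochrome P450 genes, 2 were in the highest 10% and 41 near the floor, 78.8%. CYP51A1, an enzyme of sterol synthesis that was named after its value was seen, was the other at high signal, with 8.53 ± 0.0577.

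Of 29 genes of ion, water and iron handling, 4 were in the highest 10% and 10 near the floor, 34.5% against 45.9%. FTL, the light chain of the iron store ferritin, averaged 12.26 ± 0.0592. The sodium pump subunit ATP1B1 averaged 9.70 ± 0.0424, the transferrin receptor TFRC 9.63 ± 0.102 and the basolateral chloride loader SLC12A2 8.80 ± 0.20. The iron exporter SLC40A1, encoding ferroportin, averaged 7.49 ± 0.126. CFTR, the chloride channel of crypts, averaged 6.25 ± 0.102, and it was named after its value was seen. SCNN1B, a subunit of the sodium channel of the distal colon, averaged 2.94 ± 0.149. The colonic carbonic anhydrase CA1 at 2.15 ± 0.371 and the zinc and manganese exporter SLC30A10 at 2.22 ± 0.389 were also near the floor.

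Of 23 markers of simple epithelium and carcinoma, 9 were in the highest 10%, 39.1% against 10.0%, and 4 were near the floor, 17.4% against 45.9%. KRT19, a keratin of simple epithelia, averaged 11.25 ± 0.0740, EPCAM, an epithelial adhesion protein, 10.31 ± 0.0727, CDH1, encoding E-cadherin, 9.90 ± 0.0458 and KRT18 9.46 ± 0.0279. KRT8, the partner of KRT18 in filaments, averaged 6.35 ± 0.340. Both keratins have many processed copies in the genome, so their probe sets may not report them equally well. KRT20, the keratin of differentiated intestinal cells, averaged 3.35 ± 0.315 and MUC1 3.63 ± 0.172. The tight junction genes TJP1 and CLDN4 averaged 9.27 ± 0.0983 and 8.86 ± 0.269.

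Of 14 colonocyte markers, 0 were in the highest 10% and 8 were near the floor, 57.1% against 45.9%. GUCA2A, encoding guanylin, averaged 7.10 ± 0.208 and PHLPP2, a phosphatase, 5.66 ± 0.120. CA1, the chloride channel regulator CLCA4 at 2.18 ± 0.191, the bile acid carrier subunit SLC51A at 2.36 ± 0.377 and TMIGD1 at 2.48 ± 0.195 were the lowest.

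Goblet cell genes were of mixed level. Of 18 measured, 1 was in the highest 10% and 10 were near the floor, 55.6% against 45.9%, but 11.1% against 27.0% and 11.1% against 25% with 2 lower floors. AGR2, a disulphide isomerase needed for mucin folding, read 11.21, 11.50, 11.34 and 11.50, a mean of 11.39 ± 0.138, with 99.8% of genes below it. MUC2, the gel-forming mucin of the intestine, read 3.09, 2.96, 3.05 and 3.04, a mean of 3.03 ± 0.0540. AGR2 and MUC2 thus lay on opposite sides of the range on all 4 arrays. TFF1, a trefoil peptide of the stomach, read 6.77, 8.70, 8.08 and 8.06, a mean of 7.90 ± 0.808, and without replicate 1 the mean was 8.28 ± 0.364, above the entry to the highest 10%. TFF3, the trefoil peptide of intestinal goblet cells, averaged 5.85 ± 0.331. The goblet cell factor SPDEF averaged 3.98 ± 0.181, and CLCA1, a secreted goblet cell protein, 1.97 ± 0.0452. Of 9 membrane mucins, 0 were in the highest 10% and 6 near the floor, 66.7% against 45.9%. With the 2 lower floors the mucin share was 22.2% against 27.0% and 22.2% against 25% of all genes. MUC13, the transmembrane mucin of enterocytes, averaged 7.23 ± 0.211 and MUC3A 5.40 ± 0.0947, whereas MUC17 at 3.14 ± 0.314 and MUC12 at 2.35 ± 0.30 were near the floor.

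The other secretory lineages were lower still. Of 20 enteroendocrine genes, 0 were in the highest 10% and 18 were near the floor, 90.0% against 45.9%. PYY, encoding peptide YY of the distal gut, averaged 4.66 ± 0.144 and the factor INSM1 3.97 ± 0.360. The neurotensin gene NTS at 1.70 ± 0.133, the peptide-processing enzyme CPE at 1.84 ± 0.164 and GCG, encoding glucagon and its related peptides, at 2.15 ± 0.0785 were near the floor. Of 10 Paneth cell genes 8 were near the floor, 80.0%, and the defensins DEFA5 and DEFA6 averaged 2.94 ± 0.215 and 1.97 ± 0.0953. The 2 above it were PLA2G2A, a secreted phospholipase that kills bacteria, at 7.29 ± 0.147 and LYZ, encoding lysozyme, at 4.44 ± 0.287. MMP7 read 2.68, 4.17, 4.23 and 4.01, and without replicate 1 its mean was 4.14, above the floor level of 3.87. With 2 lower floors, at 2.88 and 2.79, the Paneth share was 30.0% against 27.0% and 30.0% against 25% of all genes. Of 9 tuft cell genes 7 were near the floor, 77.8%, including POU2F3, the factor that specifies the lineage, at 3.27 ± 0.0569 and DCLK1 at 1.86 ± 0.0334.

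Genes of stem cells and of Wnt signalling, the pathway that keeps crypt cells dividing, were of mixed level. Of 17 measured, 1 was in the highest 10% and 7 were near the floor, 41.2% against 45.9%. With a higher floor, at 5.10, the share was 70.6% against 61.3% of all genes. MYC, a growth factor-responsive transcription factor, averaged 9.38 ± 0.0802. The feedback inhibitors of the pathway AXIN2, RNF43 and NKD1 averaged 6.53 ± 0.0546, 6.52 ± 0.123 and 5.53 ± 0.112. LGR5, the crypt stem cell receptor, read 5.31, 4.95, 4.69 and 4.52, a mean of 4.87 ± 0.345. It was named after its value was seen. OLFM4, another crypt base marker, averaged 2.55 ± 0.162, and CD44 2.74 ± 0.0511.

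Secreted regulators included 5 in the highest 10% and 14 near the floor of 38, 13.2% against 10.0% and 36.8% against 45.9%. DKK1, a secreted Wnt antagonist, read 9.99, 9.66, 9.48 and 9.63, a mean of 9.69 ± 0.213. EREG, a ligand of the EGF receptor, read 9.70, 9.41, 9.13 and 9.0, a mean of 9.31 ± 0.310. The protease inhibitors TIMP1 and SPINK1 averaged 8.73 ± 0.0677 and 8.26 ± 0.347, and the matrix protein CCN1 averaged 7.97 ± 0.395. Without replicate 1 CCN1 averaged 7.78 ± 0.111, below the entry to the highest 10% at 7.92. Its paralogue CCN2 averaged 2.94 ± 0.145. FGF9 at 2.26 ± 0.0799, SFRP1 at 2.59 ± 0.104, NRG1 at 2.62 ± 0.266 and INHBA, the activin A chain, at 2.08 ± 0.224 were near the floor.

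Fetal and imprinted genes were of mixed level. Of 14 measured, 3 were in the highest 10% and 5 near the floor, 21.4% against 10.0% and 35.7% against 45.9%. PEG10, an imprinted gene derived from a retrotransposon, averaged 10.13 ± 0.0836. The fetal mRNA-binding proteins IGF2BP1, IGF2BP3 and IGF2BP2 averaged 9.89 ± 0.0524, 8.94 ± 0.163 and 7.54 ± 0.221. LIN28B, which blocks maturation of let-7 microRNAs, averaged 6.31 ± 0.0932. IGF2, whose mRNA gave the binding proteins their name, read 3.66, 3.13, 3.94 and 3.59, a mean of 3.58 ± 0.336, and its imprinted neighbour H19 averaged 4.12 ± 0.0748. The imprinted genes PEG3, DLK1 and MEG3 were between 2.34 and 2.67.

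The machinery of protein synthesis and export made up much of the top of the range. Of the 20 genes with the highest mean, after small RNAs and unnamed loci were left out, 11 encode ribosomal proteins, in the order RPL24, RPL27, RPS21, RPL8, RPL35, RPL35A, RPL5, RPS16, RPL23, RPL30 and RPL38. RPL24 read 12.87, 12.87, 12.76 and 12.75, a mean of 12.81 ± 0.0674, and RPL27 averaged 12.57 ± 0.0405. The others of the 20 were the tubulins TUBB4B at 12.46 ± 0.0770, TUBB at 11.99 ± 0.0788 and TUBA1B at 11.96 ± 0.123, the chaperones HSP90AB1 at 12.14 ± 0.0249 and HSPA8 at 11.99 ± 0.0517, PHB1 at 12.34 ± 0.0293, which encodes the mitochondrial protein prohibitin, FTL, GSTP1, and SEM1 at 11.91 ± 0.0769, a proteasome subunit.

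Ribosomal protein genes also show the limit of setting probe sets of different genes side by side, because each ribosome holds 1 copy of most of these proteins. Of 38 genes of the large subunit, 21 were in the highest 10% and 4 near the floor, 10.5%, and of 17 of the small subunit 14 and 0. Of all genes 10.0% were in the highest 10% and 45.9% near the floor. RPL13A averaged 3.85 ± 0.199 and RPL32 3.89 ± 0.262, at the floor level, although both are parts of every ribosome. Ribosomal protein genes have many near-identical processed copies, which makes probe sets for them uncertain. The tissue-restricted paralogues RPL3L, RPL10L and RPL39L were at 3.27 ± 0.127, 2.24 ± 0.155 and 1.82 ± 0.294. Of 30 translation factors 25 were in the highest 10%, 83.3%, with EEF1G at 11.24 ± 0.0918 and EEF2 at 11.04 ± 0.0496.

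All 33 genes of the secretory pathway machinery were in the highest 10%, against 10.0% of all genes. The folding proteins of the endoplasmic reticulum HSP90B1, HSPA5, CALR and CANX averaged 11.89 ± 0.104, 11.21 ± 0.166, 11.13 ± 0.0564 and 11.12 ± 0.0292. The oligosaccharyl transferase subunits DAD1 and RPN2 averaged 10.95 ± 0.0700 and 10.73 ± 0.0685. At the lower end were the coat protein gene COPA at 8.39 ± 0.0950, TMED10 at 8.28 ± 0.101, the signal recognition gene SRP54 at 8.11 ± 0.0814 and XBP1, the transcription factor of the unfolded protein response, at 8.04 ± 0.0940.

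Genes of respiration and of the proteasome were mostly at high signal, and those of glycolysis were of mixed level. Of 38 genes of oxidative phosphorylation 29 were in the highest 10%, 76.3%, with ATP5F1B of the ATP synthase at 11.56 ± 0.0211 and COX7B of cytochrome oxidase at 11.50 ± 0.0817. The 4 lowest were CYCS, at 3.86 ± 0.516, which has many processed copies, and the muscle or lung forms COX4I2, COX7A1 and COX6A2, between 3.31 and 3.84. Of 23 genes of glycolysis 7 were in the highest 10%, 30.4%, and 6 near the floor, 26.1%. LDHB averaged 11.77 ± 0.0502, GAPDH 11.52 ± 0.0638, and LDHA, the other main subunit of lactate dehydrogenase, 7.01 ± 0.0715. The testis forms LDHC and PGK2 were at 2.16 ± 0.210 and 1.95 ± 0.235. Of 28 proteasome genes 22 were in the highest 10%, 78.6%. PSMB5, PSMB6 and PSMB7, the catalytic subunits of the standard proteasome, averaged 9.84 ± 0.0321, 10.13 ± 0.0746 and 9.78 ± 0.0245. Their counterparts in the immunoproteasome, which interferon induces, averaged 3.06 ± 0.224 for PSMB8, 3.36 ± 0.354 for PSMB9 and 6.88 ± 0.164 for PSMB10.

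Cell cycle genes were mostly at high signal. Of 30 cell cycle genes 23 were in the highest 10%, 76.7% against 10.0%, and 1 was near the floor. The mitotic cyclin CCNB1 averaged 10.42 ± 0.0787, thymidylate synthase TYMS 10.04 ± 0.0297, RRM2 10.00 ± 0.101 and topoisomerase TOP2A 9.96 ± 0.0399. The gene near the floor was CDKN2A, which encodes a cyclin-dependent kinase inhibitor, at 3.35 ± 0.254. The inhibitor CDKN1A averaged 4.95 ± 0.241. Of 23 chaperones 16 were in the highest 10%, 69.6%, and of 23 actin and tubulin genes 14 were, 60.9%, while the muscle actins ACTC1 and ACTA2 averaged 1.72 ± 0.312 and 2.89 ± 0.170. Tubulin and actin genes are close in sequence, so that single members are uncertain.

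Markers of other cell types differed by list. All 9 endothelial markers were near the floor, 1.71 to 3.77. Of 16 leukocyte markers 7 were near the floor, 43.8%, which is close to the 45.9% of all genes, and 1 was in the highest 10%. PTPRC, the common leukocyte antigen, averaged 1.92 ± 0.126 and CD3D of T cells 2.38 ± 0.266. CD74, the invariant chain of MHC class II, read 9.55, 9.09, 9.36 and 9.31, a mean of 9.33 ± 0.189. The lysosomal protein gene CD68 averaged 7.48 ± 0.144, and LYZ, TYROBP, NKG7, LST1, CD79A, FCER1G and CD14 were between 4.0 and 4.44, just above the floor. Of 14 fibroblast and muscle markers 2 were in the highest 10%, 14.3% against 10.0%, and 8 near the floor, 57.1% against 45.9%. With floors at 2.88 and 2.79 their share was 21.4% against 27.0% and 21.4% against 25% of all genes. Decorin DCN was at 2.02 ± 0.196 and COL1A2 at 3.14 ± 0.0873, while FN1, encoding fibronectin, averaged 9.38 ± 0.0936 and TAGLN 8.40 ± 0.320. The mesenchymal filament gene VIM averaged 4.03 ± 0.185. Of 18 erythroid, neural and skeletal muscle genes 13 were near the floor, 72.2% against 45.9%. HBA1, encoding alpha globin, averaged 8.16 ± 0.0264, while HBA2, whose coding sequence is the same and which was named after its value was seen, averaged 5.84 ± 0.313. HBB, encoding beta globin, averaged 2.39 ± 0.462 and the erythroid enzyme ALAS2 1.88 ± 0.126.

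Whole gene families, taken by symbol, were also counted. Of 82 mitochondrial ribosomal protein genes 56 were in the highest 10%, 68.3%, and 2 near the floor. Near the floor were all 23 bitter taste receptors, 50 of 51 clustered protocadherins, 21 of 22 MAGE and GAGE genes, 70 of 85 keratin-associated protein genes and 43 of 50 keratins. Of 411 solute carriers 27 were in the highest 10%, 6.57% against 10.0% of all genes. Near the floor were 186 of them, 45.3%, close to the 45.9% of all genes. Of 31 serpins 24 were near the floor, 77.4%, and SERPINA1 was the only 1 in the highest 10%. Of 11 metallothioneins, which bind zinc and copper and are close in sequence, 3 were in the highest 10%, 27.3% against 10.0%. Another 5 were near the floor, 45.5%, close to the 45.9% of all genes. The highest of them all, MT2A, averaged 11.32 ± 0.0818. MT2A was named after its value was seen. By class of gene, 12.4% of 17645 protein-coding genes were in the highest 10% and 38.0% near the floor. Of 2234 long non-coding RNA genes 1.03% and 77.4% were, and of 1097 microRNA genes, which arrays of this kind read as precursor or host transcript, 0.638% and 79.8%.

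Promoter sequence varied with the class of signal. RefSeq promoters of GRCh38.p14, 250 bases before to 50 after the start, matched 14377 of the protein-coding genes. The median number of CG dinucleotides in 300 bases was 27 in the highest 10% (quartiles 21 and 34, 1897 promoters), 26 between the limits and 9 near the floor (quartiles 3 and 24, 5262 promoters). Promoters with no CG at all made up 0.211%, 0.471% and 4.35% of these classes. By list, the median was 26 for secretory machinery and 27 for the small ribosomal subunit, against 5 for liver plasma proteins, 6 for the lipid list, 5 for brush border hydrolases and 3 for liver enzymes. Not every list followed its signal. Markers of simple epithelium and carcinoma, with 17.4% near the floor, had a median of 5. The HOXD cluster, with 77.8% near the floor, had 24.5 over 8 promoters. FABP1, in the highest 10%, held 7 CG dinucleotides in 300 bases and SI, near the floor, 0, whereas DPP4 held 34.

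**Figure D4:**
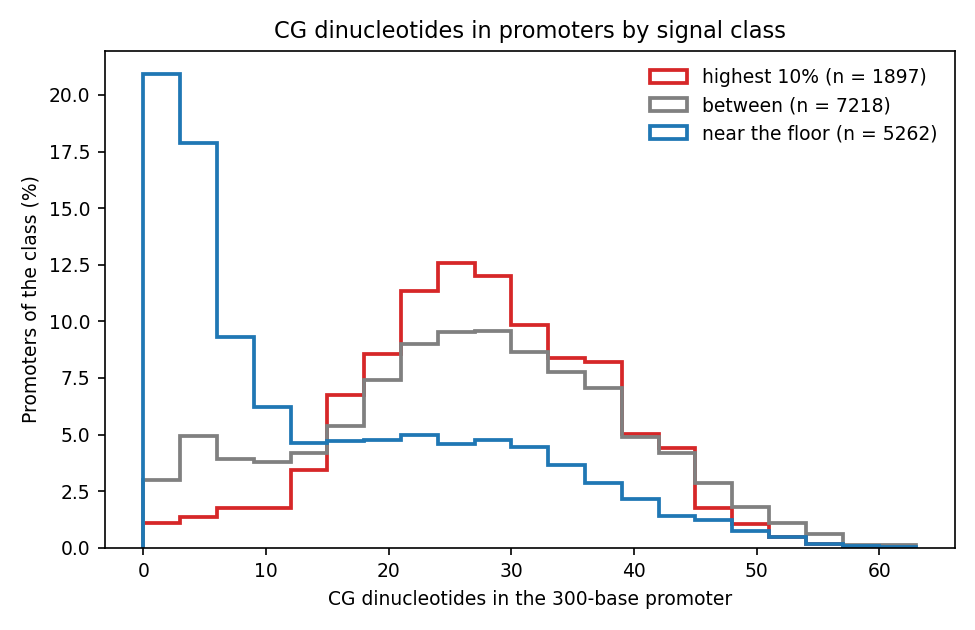
Share of promoters (vertical axis, percent of the class) by number of CG dinucleotides in the 300-base promoter (horizontal axis) for protein-coding genes in the highest 10% (red, 1897), between the limits (grey, 7218) and near the floor (blue, 5262). Promoters of genes near the floor pile up at the left, with a median of 9, against 27 in the highest 10%.

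Short motifs also differed between the classes, but not all in the same direction. Each was searched as exact letters on both strands. The ETS core ACTTCCGG was in 12.8% of promoters in the highest 10%, 1.69% near the floor and 6.39% of all promoters. The YY1 core GCCATNTTG was in 8.07%, 1.24% and 3.97%. The TATA box TATAAA was in 6.48%, 15.3% and 9.30%, and the CDX core TTTATNG in 6.43%, 11.1% and 7.89%. The HNF4 site CAAAGTCCA was too rare to compare, in 0.341% of all. The AT-rich motifs go with few CG dinucleotides, and their share with base composition held fixed was not examined. The reverse complement of TTTATNG can overlap TATAAA, as in FABP1.

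The stretch before COX8A, a cytochrome oxidase subunit with a mean of 10.43 ± 0.0522 chosen for its motif, shows the other kind of promoter. It lies on the plus strand at chr11:63974500-63974619, in the same form as above.
COX8A: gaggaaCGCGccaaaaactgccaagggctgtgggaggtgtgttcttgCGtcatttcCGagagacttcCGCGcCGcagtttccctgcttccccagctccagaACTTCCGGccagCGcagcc
It held 9 CG dinucleotides, a match to ACTTCCGG near its 3′ end and no TATAAA. A match to letters describes the sequence and does not show that a factor is bound.

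Replicate 1 was also the array that differed most often among the genes with the largest spread. Of all genes 500 had an SD above 0.5 and 6 above 1. Among the 10 genes with the largest SD at or above the median level, replicate 1 was the farthest array in 6, and among the 100 with the largest SD in 46, against 13, 17 and 24 for replicates 2, 3 and 4. NPPB, encoding a natriuretic peptide, read 9.44, 7.62, 7.41 and 6.94, a mean of 7.85 ± 1.1, and without replicate 1 7.32 ± 0.352. SAA1, an acute-phase protein of liver and epithelia, read 3.96, 6.08, 5.96 and 6.35, a mean of 5.58 ± 1.1, and without replicate 1 6.13 ± 0.199. On replicate 1 NPPB was thus high and SAA1 low. MYL7, a myosin light chain of the atrium, read 5.79, 4.46, 3.74 and 3.88, and the growth factor TGFB2 read 6.08, 5.22, 4.67 and 4.13, both with replicate 1 the highest. Without it MYL7 averaged 4.03 ± 0.384 and TGFB2 4.67 ± 0.548. CCL20, a chemokine of the intestinal epithelium, read 5.84, 7.10, 6.80 and 7.29, with replicate 1 the lowest and a mean of 7.07 ± 0.246 without it. Among the others of the 10, ANXA8L1 and ZNF141 were highest on replicate 2.

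**Figure D5:**
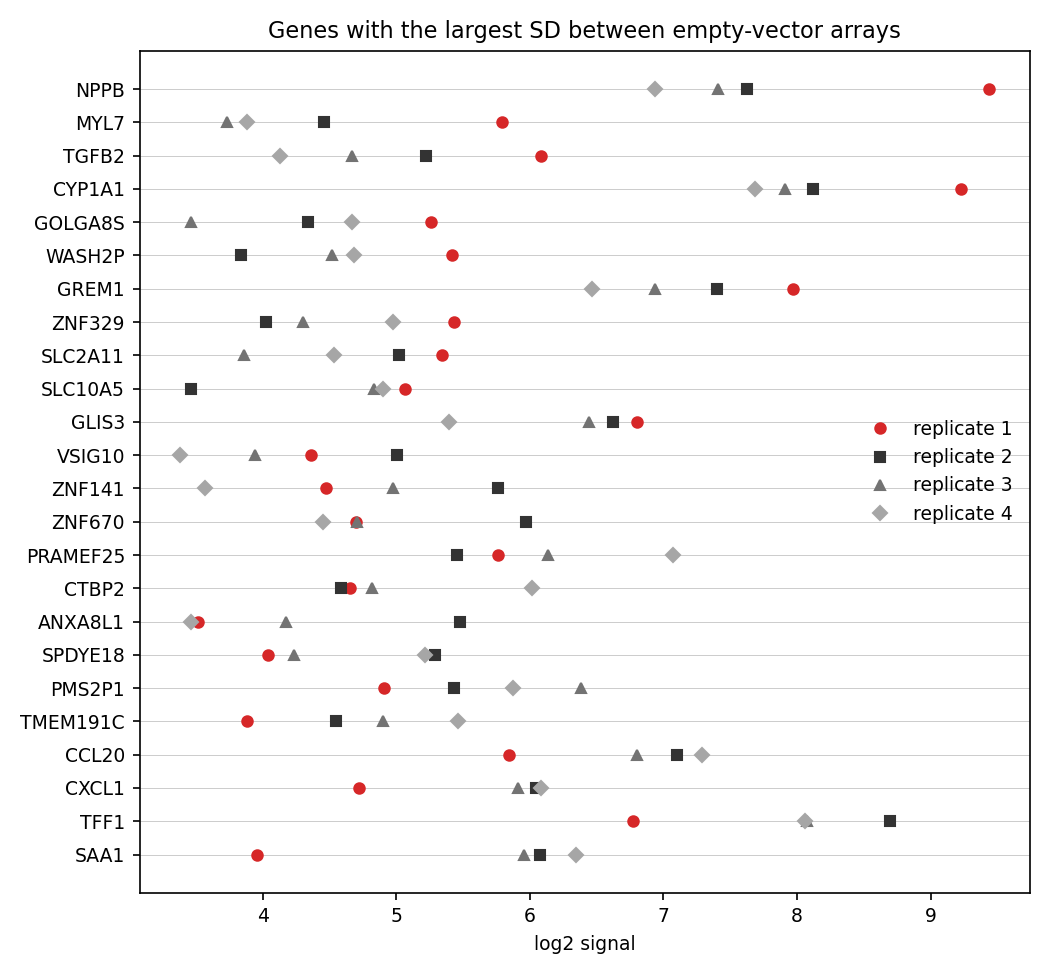
Log2 signal on each of the 4 empty-vector arrays (symbols) for genes with the largest SD among those at or above the median level, small RNAs and unnamed loci left out. Replicate 1, in red, is the highest array for NPPB, MYL7, TGFB2, CYP1A1 and GREM1, and the lowest for CCL20, CXCL1, TFF1 and SAA1.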

How the data were processed

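RNA was amplified and biotin-labelled by the Affymetrix sense-target method for whole transcripts, per the labels' protocols. The authors deposited 1 log2 value per probe set and array. The submitters' processing notes list Partek, with neither version nor role. How background was corrected and how probes were summarised and normalised is information not given in the sources used here. That the scale is log2 was judged from the values. Of 23786 probe sets, 22458 had 1 gene symbol, 0 several and 1328 none here. Names are those of the array platform, some of them outdated, brought up to date by Entrez number from RefSeq's GRCh38.p14 gene table.

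For each gene the mean and SD of the 4 control arrays were computed with Python 3.11.15, pandas 2.3.3 and numpy 2.4.6, and genes were ranked by mean. The steps were run on data simulated from the observed means and SDs and on planted motifs, which checks the code and not the choice of limits. The number of arrays limits the precision. The 38 lists held 877 genes, of which 771 were measured and 106 have no probe set named here. Members and lists were chosen with earlier results of these data known. Named were the 20 genes with the highest mean, up to 6 highest and 4 lowest of each list, the members of the transcription factor, HOX, brush border, plasma protein and lipid lists, the 10 genes with the largest SD at or above the median level, and paralogues of named members. A few others were chosen after their values were seen. These are HLA genes, PI3, CXCL1, GREM1, CYP51A1, MT2A, CFTR, LGR5, HBA2, and members of the middle of a list. Alternatives were other limits for the floor and for high signal, medians, all probe sets, quantile normalization and leaving out each array.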

Additional observations from a re-analysis of the deposited data

Results flagged for a closer look

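In 18 of the 299 genes named here, 1 of the 4 arrays lay far from the rest, with a gap to its neighbour that took up more of the group's range than Dixon's critical value at 95%. Chance flags about 1 in 20 groups, which would be 14.9 of 299, and over all 22458 genes the share was 5.76%. The 299 include genes named for a large SD or after their values were seen. PI3, CXCL1, CFTR and CYP51A1, all among the 18, were named in the latter way. The counts for the 18 are therefore not those of genes chosen without regard to their values. The array that stood apart was replicate 1 in 9 of the 18, replicate 2 in 3, replicate 3 in 1 and replicate 4 in 5. Low on replicate 1 were SAA1 at 3.96 against 5.96 to 6.35 on the other arrays, CXCL1 at 4.72 against 5.91 to 6.08 and PI3 at 10.03 against 11.16 to 11.36. These 3 genes had by far the widest gaps. Also low on it were CDH17 at 8.86, ANKS4B at 5.78, SLC2A1 at 10.81, TUBA1B at 11.77 and PSMB10 at 6.64, and CFTR was high on it at 6.41. On replicate 2 SLC15A1 was high at 6.95, KRT19 at 11.37 and LYZ at 4.87. On replicate 3 CPS1 was high at 2.70. On replicate 4 SAR1B at 8.40, ONECUT1 at 3.65, HOXB7 at 6.56 and COX7A1 at 3.98 were high, and CYP51A1 was low at 8.45. The cause was not tested.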

How the results depend on the processing

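The counts near the floor depend on where the floor is set. With the 75th percentile of olfactory receptor genes, at 2.88, or the lower quartile of all genes, at 2.79, the genes near the floor numbered 6064 and 5615 in place of 10305, 27.0% and 25% of all genes. Members near the floor were then 7 and 7 of 14 brush border hydrolases, 11 and 10 of 20 enteroendocrine genes, 2 and 2 of 18 goblet cell genes, and 9 and 7 of 39 liver plasma proteins. The shares were 50% and 50% of the hydrolases and 55.0% and 50% of the enteroendocrine genes, still above that of all genes. They were 11.1% and 11.1% of the goblet cell genes and 23.1% and 17.9% of the liver plasma proteins, which turned to below that of all genes. Membrane mucins, at 22.2%, and fibroblast and muscle markers, at 21.4%, turned the same way with both lower floors. The HOXD cluster turned so with the lower quartile of all genes, at 22.2%, but not with the 75th percentile, at 33.3%. With the 95th percentile of keratin-associated protein genes the floor was 5.10 and 13759 genes lay near it, 61.3% of all genes. The HOXC cluster at 66.7%, stem and Wnt genes at 70.6%, leukocyte markers at 87.5% and ion, water and iron handling at 62.1% then turned to above that share, as did the single HOXA gene. Drug and bile acid transporters at 54.2% and drug-metabolising enzymes at 60.7% turned to below it. With the highest 5% of genes in place of 10%, 0 brush border hydrolases and 2 lipid genes were high, and with the highest 20% 13 lipid genes were. The median SD over genes was 0.145 to 0.151 when 1 array was left out, lowest without replicate 1, and 0.126 for genes at or above the median level. The other 85 of 100 values for the main counts moved by less than the limit set for them, quantile normalization, centring of the arrays and the use of all probe sets included. Of 724 values for the other list counts 88 moved by more than 1.5 times or to or from 0, 61 of them with another floor and 20 with the highest 5% or 20%. Signals near the floor have no reliable order, and without detection calls absence cannot be shown. No paired analysis was possible because only 1 group was used and no result comes from a test.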

Other observations

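Genes of antigen presentation and of the epithelial response to microbes were looked at after their values were seen. CD74 was in the highest 10%, as was B2M, the light chain of MHC class I, with 9.37 ± 0.0806 (SD, n = 4). HLA-DRA and HLA-DRB1, the class II chains that CD74 escorts, averaged 2.07 ± 0.112 and 2.42 ± 0.157, near the floor on all 4 arrays. The class I heavy chains HLA-C and HLA-B averaged 6.88 ± 0.144 and 6.35 ± 0.0653, and as these genes are close in sequence and vary between people, their probe sets are uncertain. PI3, encoding the protease inhibitor elafin, read 10.03, 11.36, 11.16 and 11.27 on replicates 1 to 4, a mean of 10.96 ± 0.625, and 11.26 ± 0.102 without replicate 1, on which it was lowest.

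CXCL1, a chemokine for neutrophils, read 4.72, 6.04, 5.91 and 6.08, a mean of 5.69 ± 0.651, and 6.01 ± 0.0906 without replicate 1. GREM1, a secreted BMP antagonist, read 7.97, 7.40, 6.94 and 6.46, a mean of 7.19 ± 0.643, and 6.93 ± 0.467 without replicate 1. Replicate 1 was thus lowest for CXCL1 and PI3 and highest for GREM1. SAA2, the near-identical neighbour of SAA1, averaged 2.95 ± 0.25.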
